A study of Mus musculus with 6 samples.

Results

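The acute phase plasma proteins examined here are the 10 genes Saa1, Saa2, Saa3, Saa4, Orm1, Orm2, Hp, Crp, Apcs and Lcn2 in the livers of mice given alcohol or a control diet. They were taken by name from the gene column of the arrays, which gave 12 probes of the 41174 on the array, since Saa1 and Saa4 have 2 probes each. All 12 probes matched a current gene of the same symbol through their RefSeq accession. Male 129/Sv mice, 6 to 8 weeks old at the start, were kept on the Lieber-DeCarli liquid diet, in which the treated arm received 4% ethanol and the control arm an isocaloric amount of maltose dextran, after all animals had been preconditioned on the control diet. Livers were taken after 1, 2 or 4 months, equal amounts of RNA from 6 mice of an arm were combined, and the 6 resulting pools were compared alcohol against control on 6 two-color arrays. Both arms were male mice of the same strain, diet base and length of feeding, so that ethanol against maltose dextran was the only labeled difference within a month. Each month's pools were hybridized on a dye-exchanged pair of arrays, which hold 1 RNA mixture of each arm and are counted as a single replicate, so that their spread is technical and the variation between mice was not measured. Every channel of every array read the 12 probes well above its background, 0 of the probes had a saturated channel, and none of their values is a limit.

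Acute phase proteins are plasma proteins that hepatocytes make in larger (positive) or smaller (negative) amounts after infection, tissue injury or inflammation. Interleukin-6, acting through STAT3, and interleukin-1 and tumor necrosis factor, acting through NF-kB and members of the C/EBP family, are the best-known inputs. In the mouse the serum amyloid A proteins and serum amyloid P (Apcs) are the strong responders, whereas C-reactive protein (Crp), the classic human marker, responds weakly. Orm1 and Orm2 encode orosomucoids that bind small molecules, Hp encodes haptoglobin that captures free hemoglobin, and Lcn2 encodes lipocalin-2, which withholds iron from bacteria by binding their siderophores. In pooled tissue a lower value can come from fewer cells of a type or from less RNA per cell, and these cannot be told apart.

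The members did not share a direction. In the alcohol pools Lcn2 was more than 2-fold above control at 2 and 4 months. Saa1, Saa2 and Saa3 lay near control at 1 month and below it at 2 and 4 months. The difference reached about 1 log2 unit for Saa3 and for 1 Saa1 probe (A_51_P361650). The Saa1 probe of stronger signal (A_52_P318673) reached -0.25 at 4 months. Orm2 lay slightly above control on every array. The ratios of Saa4, Orm1, Hp and Crp stayed close to 0 in the monthly averages or changed sign when the dyes were exchanged, and Apcs lay below control at 2 months (average -0.43, SD 0.45) with arrays of opposite sign at 4 months. The ratio used throughout is the log2 of the processed signal of the alcohol pool over that of the control pool on the same array, so that 1 is 2-fold higher and -1 is 2-fold lower with alcohol.

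**Figure D1:**
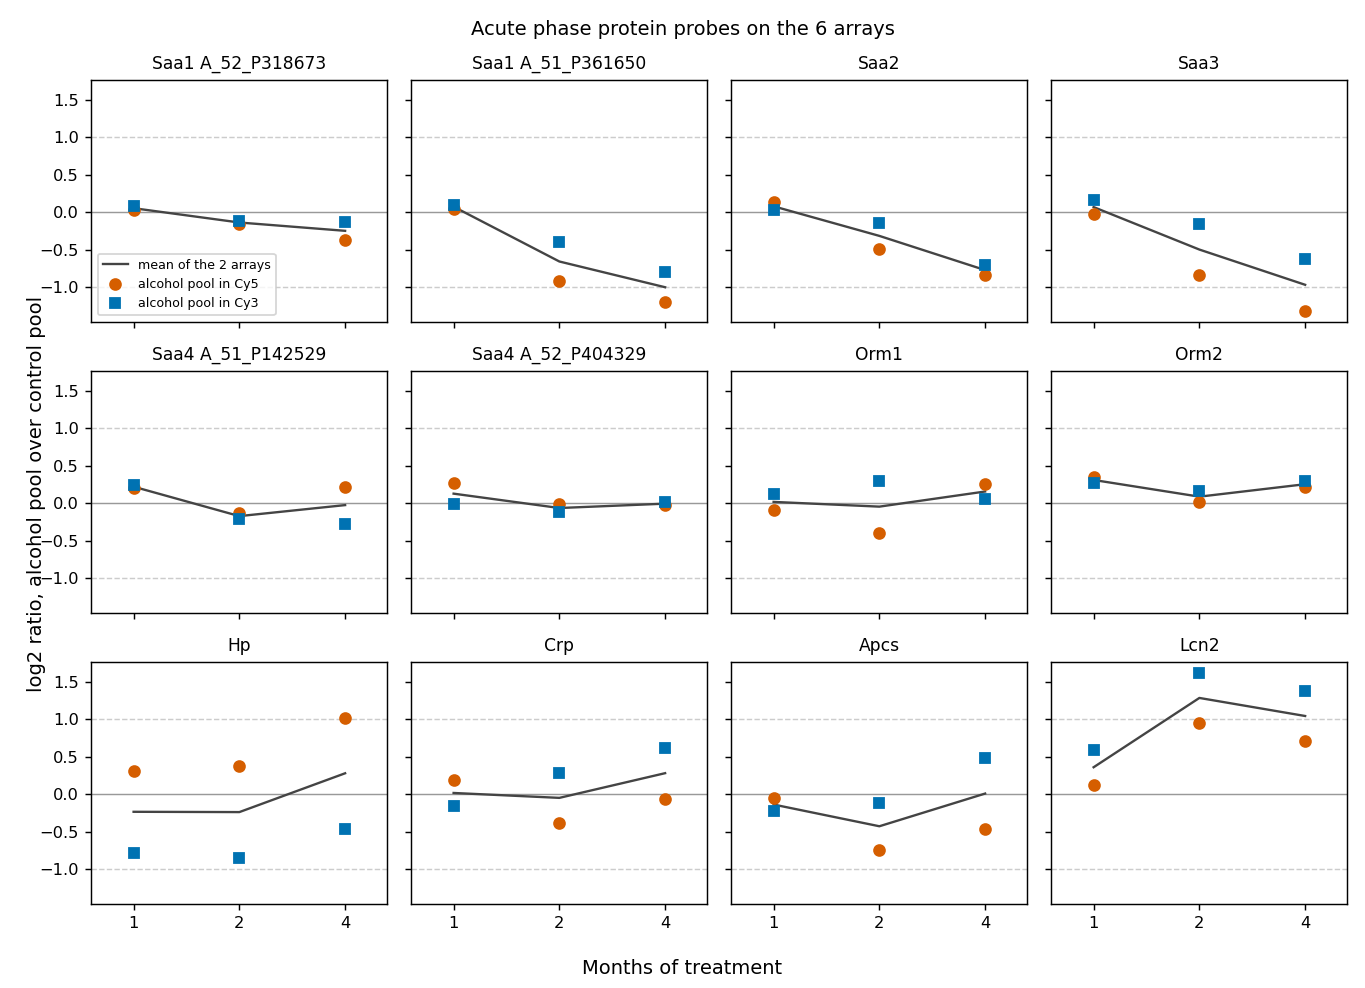
Log2 ratio of the alcohol pool over the control pool (vertical axis) for the 12 probes by months of treatment (horizontal axis). Circles are arrays with the alcohol pool in Cy5, squares those with it in Cy3, lines join the mean of the 2 arrays, and dashed lines mark 2-fold. Lcn2 lies above 0 on all 6 arrays, Saa1, Saa2 and Saa3 lie below 0 on the arrays of 2 and 4 months, and the 2 dye orientations of Hp lie on opposite sides of 0.

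Lcn2 (probe A_51_P510156) had log2 ratios of 0.13 and 0.59 (1 month), 0.95 and 1.62 (2 months) and 0.71 and 1.38 (4 months), with the alcohol pool in Cy5 given first and in Cy3 second in each pair. All 6 arrays lay above 0, and in each month the array with alcohol in Cy3 gave the larger value. At 2 months the signal of the alcohol pool was 1234 against 639 for the control pool on the one array and 1175 against 382 on the other. The monthly averages were 0.36 (SD 0.33 between the 2 arrays), 1.28 (SD 0.47) and 1.04 (SD 0.47), that is 1.28-, 2.44- and 2.06-fold. At 2 months 32 of the 37922 tested probes (those clearly over background somewhere in the series) had a larger average ratio than Lcn2, at 4 months 148 did, and at 1 month 975 did. The difference exceeded the spread between the arrays at 2 and 4 months and was about equal to it at 1 month. The arrays with alcohol in Cy5 did not reach 2-fold by themselves at either month, and with normexp background correction and loess normalization together the average of 4 months was 0.98.

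Neutrophils store lipocalin-2 in their granules, so the neutrophil markers are given beside it. Of 10 listed markers 9 had a probe. S100a8, a defining neutrophil gene, was not well above background in any channel of any array, so its ratio is not given, and its partner S100a9 had average log2 ratios of -0.29, -0.12 and 0.03 at 1, 2 and 4 months. The median of the 8 markers other than S100a8 was -0.11, 0.14 and 0.04, and the largest value among these 8 was that of Camp at 2 months, 0.47, with 0.12 and 0.83 on its 2 arrays. Elane averaged 0.25, 0.14 and 0.10, with arrays of opposite sign in every month. Ltf averaged -0.16, 0.01 and 0.005, with arrays of opposite sign at 2 and 4 months. The log2 of the summed level of the list, relative to the 75th percentile of a channel, lay between 3.25 and 3.94 in the alcohol pools and between 3.36 and 3.92 in the control pools. The part of neutrophils in the Lcn2 ratio was not tested.

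Lcn2 lies at chr2:32384637-32387739 in GRCm38.p6. Its promoter, from 250 bases before to 50 after the annotated start at chr2:32387690-32387989 on the minus strand, is shown because Lcn2 is the member with the highest ratio, with the C/EBP motif in capitals.
Lcn2: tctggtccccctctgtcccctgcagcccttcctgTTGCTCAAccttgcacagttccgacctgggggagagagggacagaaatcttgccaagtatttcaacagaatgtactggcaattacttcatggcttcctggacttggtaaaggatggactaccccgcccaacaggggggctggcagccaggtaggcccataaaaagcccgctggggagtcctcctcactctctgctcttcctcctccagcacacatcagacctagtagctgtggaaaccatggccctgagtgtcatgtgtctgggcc

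The serum amyloid A genes Saa1, Saa2, Saa3 and Saa4 lie together on chromosome 7. Saa1 and Saa2 encode the main circulating acute phase forms, Saa3 a form also made outside the liver, including by macrophages and adipocytes, and Saa4 the constitutive form. On the first probe of Saa1 (A_51_P361650) the log2 ratios were 0.05 and 0.10 (1 month), -0.92 and -0.40 (2 months) and -1.20 and -0.80 (4 months), in the order Cy5 and Cy3 as above. Both arrays of 1 month lay slightly above 0 and all 4 later arrays below it. The averages were 0.07 (SD 0.04), -0.66 (SD 0.37) and -1.001 (SD 0.28), so that the control pool was 1.58-fold the alcohol pool at 2 months and 2.00-fold at 4 months.

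Saa2 (A_51_P166886) had ratios of 0.13 and 0.03 (1 month), -0.49 and -0.14 (2 months) and -0.84 and -0.70 (4 months). The averages of 0.08 (SD 0.07), -0.32 (SD 0.25) and -0.77 (SD 0.10) followed the same order as those of Saa1, and the 2 arrays of 4 months were close to each other. The control pool of 4 months was 1.71-fold the alcohol pool.

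Saa3 (A_51_P337308) had ratios of -0.03 and 0.16 (1 month), -0.84 and -0.16 (2 months) and -1.31 and -0.62 (4 months). The averages were 0.07 (SD 0.14), -0.50 (SD 0.48) and -0.97 (SD 0.49). At 2 months the difference was about as large as the spread between the arrays, and at 4 months, where the control pool was 1.96-fold the alcohol pool, it was about 2 times that spread. At 4 months the signals were 4250 in the alcohol pool and 10572 in the control pool where alcohol was in Cy5, and 3617 and 5566 on the other array. Saa1 (A_51_P361650) at -1.001 was thus just past 2-fold at 4 months and Saa3 at -0.968 just short of it.

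The other Saa1 probe (A_52_P318673) had the stronger signal and gave much smaller differences. At 4 months its signal in the control pool in Cy3 was 45774, against 11008 for the first probe. Its log2 ratios were 0.02 and 0.08 (1 month), -0.16 and -0.12 (2 months) and -0.37 and -0.13 (4 months), and the averages were 0.05 (SD 0.04), -0.14 (SD 0.03) and -0.25 (SD 0.17). The signs were those of the first probe, but at 4 months the control pool was 1.19-fold the alcohol pool instead of 2.00-fold. The Saa1 and Saa2 transcripts are near copies of each other, a probe may detect both, and which transcript each probe reports was not tested.

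Saa4, by contrast, had no common sign on the arrays of 4 months. Its probe A_51_P142529 gave 0.20 and 0.24 (1 month), -0.13 and -0.22 (2 months) and 0.22 and -0.27 (4 months), and its probe A_52_P404329 gave 0.26 and -0.01, -0.01 and -0.12, and -0.03 and 0.02. The first of them lay above 0 on both arrays of 1 month and below it on both arrays of 2 months. On both probes the arrays of 4 months were on either side of 0, and the monthly average farthest from 0 was 0.22.

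The promoters of Saa1, Saa2 and Saa3 are shown because these members lay below 0 on all 4 arrays of 2 and 4 months. The C/EBP motif is in capitals, and each sequence runs from 250 bases before to 50 after the RefSeq start in GRCm38.p6. Saa1 is at chr7:46742931-46743230 on the minus strand, Saa2 at chr7:46751583-46751882 on the plus strand, and Saa3 at chr7:46715627-46715926 on the minus strand.
Saa1: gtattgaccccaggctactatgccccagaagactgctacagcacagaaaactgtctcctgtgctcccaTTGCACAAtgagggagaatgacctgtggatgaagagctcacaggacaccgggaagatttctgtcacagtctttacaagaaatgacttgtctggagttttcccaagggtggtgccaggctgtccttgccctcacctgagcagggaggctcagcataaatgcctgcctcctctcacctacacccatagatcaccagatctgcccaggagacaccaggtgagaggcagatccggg
Saa2: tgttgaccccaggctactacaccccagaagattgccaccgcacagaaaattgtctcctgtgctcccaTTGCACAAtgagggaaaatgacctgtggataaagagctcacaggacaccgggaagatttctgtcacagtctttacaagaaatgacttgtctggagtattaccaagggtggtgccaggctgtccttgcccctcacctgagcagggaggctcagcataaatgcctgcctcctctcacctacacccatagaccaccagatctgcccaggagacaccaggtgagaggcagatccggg
Saa3: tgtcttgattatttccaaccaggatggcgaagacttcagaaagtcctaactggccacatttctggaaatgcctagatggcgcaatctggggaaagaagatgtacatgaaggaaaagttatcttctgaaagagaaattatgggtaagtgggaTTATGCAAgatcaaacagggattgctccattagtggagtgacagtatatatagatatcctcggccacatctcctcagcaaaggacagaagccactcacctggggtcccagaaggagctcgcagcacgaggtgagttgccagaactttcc

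The Saa1 and Saa2 windows differ by 14 single-base edits over 300 bases, so they are not independent examples, whereas Saa1 and Saa3 differ by 152. On either strand, TTGCNNAA (C/EBP) was found once in Saa1, 182 bases before the start, once in Saa2 at 183 bases, once in Saa3 at 99 bases and once in Lcn2 at 216 bases. This motif occurred in 10.8% of the 32851 promoter windows of the same length. Of the 8 members with a window in the table, Saa4 also held it at 2 places and Orm2 at 1, while Crp and Apcs held none. TTCNNNGAA (STAT) was found in Apcs and in no other member, against 8.30% of all windows, and the NF-kB consensus was found in none of the 8, against 4.51%. No motif overlapped another. The C/EBP match was thus present in members with higher, lower and near-zero ratios.

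**Figure D2:**
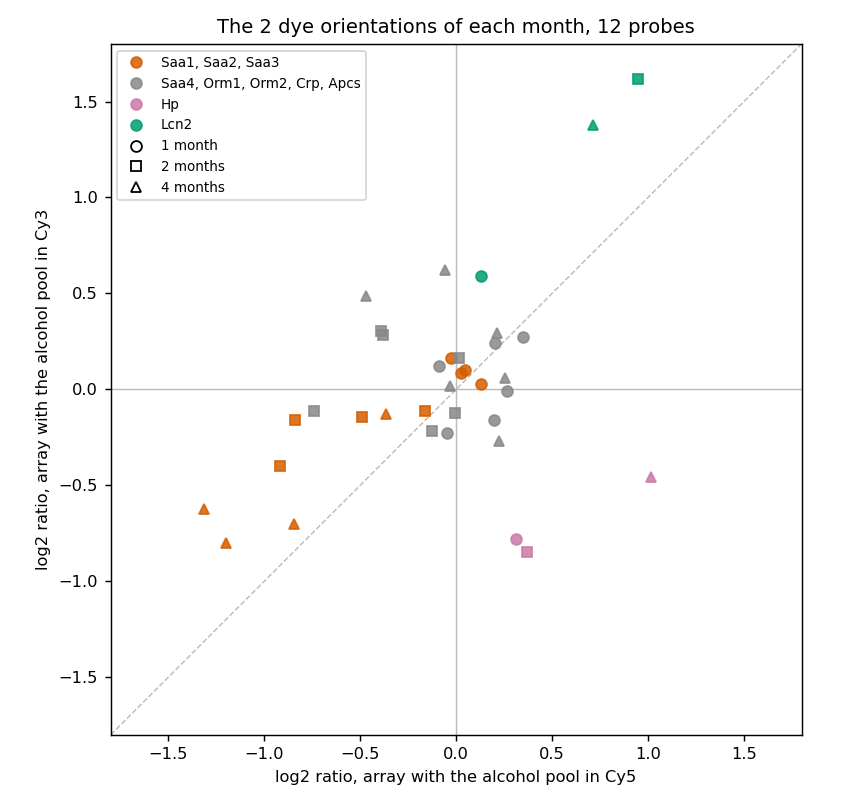
Log2 ratio on the array with the alcohol pool in Cy5 (horizontal axis) against that on the array with it in Cy3 (vertical axis) for the 12 probes at 3 months, with shapes for the month and colors for the gene. A value free of dye effects lies on the dashed diagonal. Lcn2 lies in the upper right, Saa1, Saa2 and Saa3 at 2 and 4 months in the lower left, and Hp in the lower right at every month.

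Of the remaining positive acute phase proteins, Orm2 (A_51_P141546) had log2 ratios of 0.35 and 0.27 (1 month), 0.01 and 0.16 (2 months) and 0.21 and 0.30 (4 months). It lay above 0 on all 6 arrays, with averages of 0.31 (SD 0.05), 0.09 (SD 0.10) and 0.25 (SD 0.06), so the excess was larger than the spread of the arrays at 1 and 4 months and within it at 2 months. Its neighbor Orm1 (A_51_P336325) gave -0.09 and 0.12, -0.39 and 0.30, and 0.25 and 0.06. Orm1 was thus on either side of 0 at 1 and 2 months, and its averages of 0.02, -0.05 and 0.16 did not exceed the spread between the arrays at 1 and 2 months.

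Among the members, haptoglobin showed the widest disagreement between the dyes. Hp (A_51_P235945) had ratios of 0.31, 0.37 and 1.02 on the arrays with alcohol in Cy5, and of -0.78, -0.85 and -0.46 on those with alcohol in Cy3, at 1, 2 and 4 months. All Cy5 arrays lay above 0 and all Cy3 arrays below it. The averages of -0.23, -0.24 and 0.28 had SDs of 0.77, 0.86 and 1.04 between the 2 arrays, and no direction can be given for haptoglobin. The part of the ratio that followed the dye, which is the difference between the arrays divided by 2, was 0.55, 0.61 and 0.74 for Hp, against an SD over all tested probes of 0.17, 0.31 and 0.35.

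The pentraxins Crp and Apcs, which bind microbial surfaces and debris, also differed between the 2 arrays of a month. Unlike that of Hp, the part that followed the dye changed sign between months. It was 0.18, -0.33 and -0.34 for Crp and 0.09, -0.32 and -0.48 for Apcs. Crp (A_51_P105554) gave 0.20 and -0.16 (1 month), -0.38 and 0.29 (2 months) and -0.06 and 0.62 (4 months), so the arrays of a month were on opposite sides of 0 every time. Apcs (A_51_P354165) gave -0.05 and -0.23, -0.74 and -0.11, and -0.47 and 0.49. Apcs was below 0 on 5 of the 6 arrays, with averages of -0.14, -0.43 and 0.01 whose SDs were 0.13, 0.45 and 0.68, so that the difference exceeded the spread of the arrays, and narrowly, at 1 month only. Of the 12 probes 7 had opposite signs on the 2 arrays in at least 1 month, against 88.9% of all tested probes.

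Counted over the 12 probes, 0 were at least 2-fold higher and 0 at least 2-fold lower at 1 month, against 0.158% and 0.0949% of all tested probes. The 2-month pools gave 1 higher (Lcn2) and 0 lower, against 0.24% and 0.195%. The 4-month pools gave 1 higher (Lcn2) and 1 lower (Saa1, A_51_P361650), against 0.467% and 0.338%. The higher call of 4 months was lost with normexp and loess, and those of Lcn2 at both months with alcohol in Cy5 alone and when each array had to reach 2-fold. The lower call was lost with median centring, with alcohol in Cy3 alone, when both arrays had to reach 2-fold and with the mean of the Saa1 probes. At least 1.5-fold lower were 1 probe at 2 months (Saa1, A_51_P361650), against 1.63% of all tested probes, and 3 at 4 months (the same Saa1 probe, Saa2 and Saa3), against 1.62%. On the array of 4 months with alcohol in Cy5 alone, 1 probe (Hp) was at least 2-fold higher, against 1.11%, and 2 (Saa1, A_51_P361650, and Saa3) at least 2-fold lower, against 1.1%. Lcn2 and Orm2, 2 of the 12 probes, lay above 0 on all 6 arrays, as did 1.72% of all tested probes, and 0 lay below 0 on all 6, against 2.42%. The 4 probes of Saa1, Saa2 and Saa3 lay below 0 on all 4 arrays of 2 and 4 months, which held for 7.75% of all tested probes. Of these 4 probes 2 are assigned to Saa1, and whether a Saa1 probe and that of Saa2 share transcripts was not tested. The 4 may therefore be fewer than 4 separate measurements. The median log2 ratio of the 12 probes was 0.07, -0.15 and 0.00 at 1, 2 and 4 months, and that of all tested probes 0.00, 0.01 and -0.01.

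The 3 months, each with its own mice, were taken as replicates of the alcohol effect. A limma fit of the 3 monthly averages against 0 called 0% of the 37922 probes after Benjamini-Hochberg adjustment, 0 of them members, while 3012 probes, 2 of them members (Lcn2 and Orm2), passed 0.05 before adjustment. Without moderation the t-test of the same values called 0 probes. For Lcn2 the effect was 0.90 (standard error 0.19, 95% interval 0.40 to 1.39, limma adjusted p = 0.616), above 0 in 3 of 3 months. Orm2 had 0.22 (standard error 0.07, interval 0.03 to 0.41, limma adjusted p = 0.624). For Saa1 (A_51_P361650) it was -0.53 (standard error 0.21, interval -1.09 to 0.03, limma adjusted p = 0.628) and for Saa3 -0.47 (standard error 0.20, interval -0.996 to 0.064, limma adjusted p = 0.636), both below 0 in 2 of 3 months. The other Saa1 probe (A_52_P318673) had -0.11 (standard error 0.08, interval -0.32 to 0.10, limma adjusted p = 0.748), and Saa2 had -0.34 (standard error 0.17, interval -0.78 to 0.11, limma adjusted p = 0.662). Without the 1-month pools the effects of Saa1 (A_51_P361650), Saa1 (A_52_P318673), Saa2 and Saa3 were -0.83, -0.19, -0.54 and -0.73, and without the 4-month pools they were -0.29, -0.04, -0.12 and -0.22.

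The slope of the log2 ratio per doubling of the treatment time was also fitted with limma, which called 0% of the probes and 0 members after adjustment. Before adjustment 2701 probes passed 0.05, among them the 3 members Saa1 (A_51_P361650), Saa2 and Saa3. The unmoderated t-test called 1 probe, which is no member. The slope of Saa3 was -0.52 (standard error 0.08, 95% interval -0.74 to -0.30, limma adjusted p = 0.687), that of Saa1 (A_51_P361650) -0.54 (standard error 0.10, interval -0.81 to -0.27) and that of Saa2 -0.43 (standard error 0.08, interval -0.65 to -0.20), both with a limma adjusted p of 0.687. The other Saa1 probe (A_52_P318673) had a slope of -0.15 (standard error 0.08, interval -0.37 to 0.07, limma adjusted p = 0.797). For Lcn2 it was 0.34 (standard error 0.19, interval -0.18 to 0.86, limma adjusted p = 0.807). After normexp background correction and loess normalization the adjusted p from limma was 0.063 for the slope of Saa3. The 1-month arrays shared a slide that held none of the later ones, and slide and time cannot be told apart in these slopes wherever 1 month enters.

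**Figure D3:**
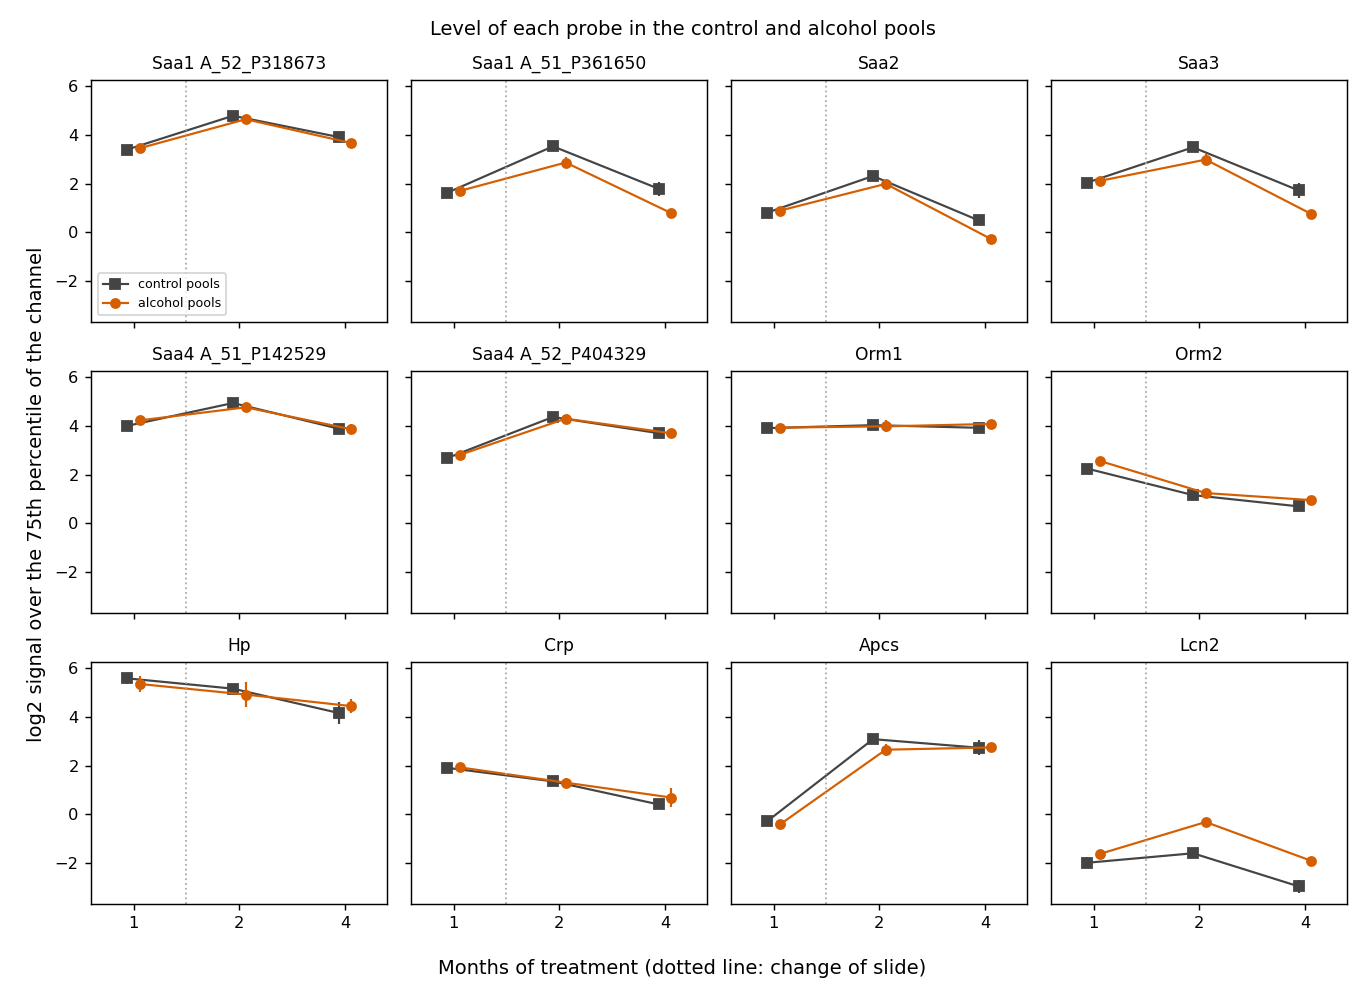
Level of each of the 12 probes in the control pools (squares) and the alcohol pools (circles) at 1, 2 and 4 months, as the log2 of the processed signal over the 75th percentile of its channel. Symbols are the mean of the 2 arrays, vertical bars span their values, and the dotted line marks the change of slide. Saa1, Saa2, Saa3, Saa4 and Lcn2 lie highest at 2 months in both kinds of pool, and Apcs is over 2 log2 units higher at 2 and 4 months than at 1 month.

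The levels of several members also differed between the pools of different months, in control and alcohol mice alike. The comparison of 2 with 4 months is the one made within a slide, and across all tested probes its SD was 0.53 in the control pools and 0.56 in the alcohol pools, with medians of 0.01 and 0.02. In the control pools the log2 level of Saa1 (A_51_P361650) was 3.52 at 2 months and 1.78 at 4 months, that of Saa2 2.31 and 0.49, and that of Saa3 3.48 and 1.72. The levels of 4 months were thus 3.34-, 3.53- and 3.40-fold lower in mice that received no alcohol. In the alcohol pools the same levels were 2.86 and 0.78 for Saa1, 1.99 and -0.28 for Saa2, and 2.98 and 0.75 for Saa3, or 4.22-, 4.82- and 4.69-fold lower. Taking any array of 4 months minus any array of 2 months, the log2 difference of these 3 probes nearest to 0 was -1.37 in the control pools (Saa3) and -1.77 in the alcohol pools (Saa1). The other Saa1 probe (A_52_P318673) changed less, from 4.77 to 3.90 in the control pools and from 4.63 to 3.65 in the alcohol pools, or 1.83- and 1.97-fold lower. Its array pairs nearest to 0 differed by -0.60 and -0.84. Saa4 (A_51_P142529), Hp and Crp were 2.07-, 2.00- and 1.93-fold lower at 4 months in the control pools. In the alcohol pools they were 1.87-, 1.39- and 1.53-fold lower. Orm1 and Apcs were 1.08- and 1.28-fold lower in the control pools and both 1.07-fold higher in the alcohol pools. The log2 of the summed level of 9 hepatocyte markers also fell. It went from 7.79 to 6.84 in the control pools and from 7.91 to 7.07 in the alcohol pools.

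Lcn2 was also lower at 4 than at 2 months in both arms, with levels of -1.59 and -2.95 in the control pools and -0.31 and -1.90 in the alcohol pools. The ratio of Lcn2 at 4 months was therefore taken at a lower level in both pools than that at 2 months. At least 2-fold lower at 4 than at 2 months were 5 of the 12 probes in the control pools, against 3.18% of all tested probes, and 4 in the alcohol pools, against 3.29%. The 5 were 1 probe each of Saa1, Saa2, Saa3, Saa4 and Lcn2, and the 4 were the same without Saa4. Each pool is a single mixture, so these differences between months have no replicate and no test.

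The 1-month pools lay on the other slide, and between them and the 2-month control pools the level of all tested probes differed with a median of -0.39 and an SD of 1.21. At least 2-fold higher at 2 months than at 1 month were 6 of the 12 probes in the control pools, against 9.29% of all tested probes, and 6 in the alcohol pools, against 9.12%. With the median of the channel in place of its 75th percentile, the median difference of all probes in the control pools was 0.16 instead of -0.39, and the counts were 7 (19.4%) in the control pools and 8 (19.3%) in the alcohol pools. With Aquantile scaling after loess they were 5 (11.9%) and 2 (11.8%), the 2 being Apcs and Lcn2. Apcs stood out in this comparison, with levels of -0.28, 3.08 and 2.73 in the control pools and -0.41, 2.65 and 2.74 in the alcohol pools at 1, 2 and 4 months. It was 10.3-fold higher at 2 months than at 1 month in the control pools, which 154 of the tested probes exceeded, and 8.35-fold higher in the alcohol pools, which 198 exceeded. Orm2 went the other way, from 2.24 at 1 month to 1.16 and 0.70 in the control pools and from 2.56 to 1.24 and 0.95 in the alcohol pools. Its fall from 1 to 2 months was common, since 10283 of the tested probes fell further in the control pools and 8058 in the alcohol pools. Orm1 lay between 3.90 and 4.07 in all 6 pools on this scale, but with the median of the channel it was 0.66 higher at 2 months than at 1 month in the control pools and 0.61 higher in the alcohol pools. Slide and age cannot be told apart in these comparisons with 1 month.

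**Figure D4:**
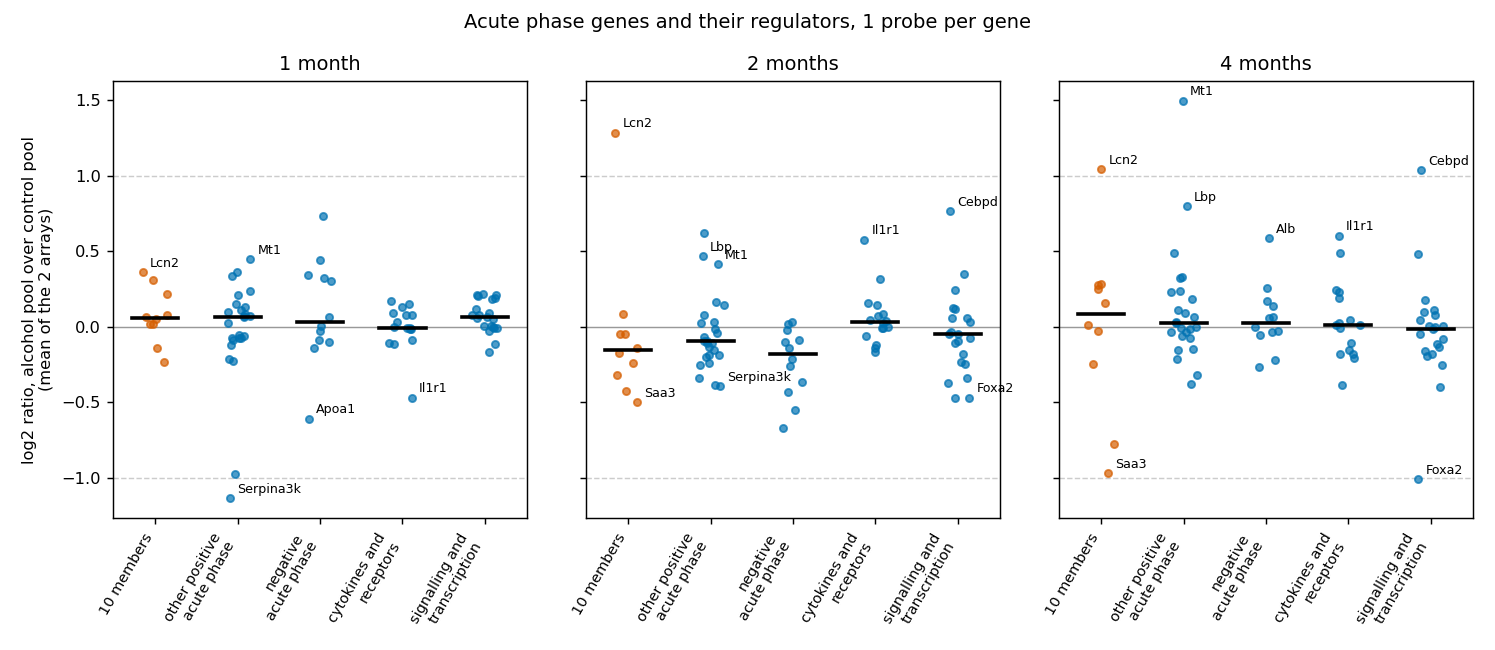
Average log2 ratio of the alcohol pool over the control pool (vertical axis) at 1, 2 and 4 months for the 10 members (orange) and for 4 lists of related genes (blue), 1 probe per gene. Black bars are medians and dashed lines mark 2-fold. The medians of all lists stay within 0.2 of 0, and Lcn2, Saa3, Mt1, Lbp, Serpina3k, Cebpd and Foxa2 lie far from them.

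Among 26 other positive acute phase proteins, 25 had a probe, and all 25 were well above background throughout. At least 2-fold higher were 0, 0 and 1 of them at 1, 2 and 4 months, and at least 2-fold lower 1, 0 and 0, with medians of 0.06, -0.09 and 0.03. Of all tested probes 0.158%, 0.24% and 0.467% were that much higher and 0.0949%, 0.195% and 0.338% that much lower. The gene higher at 4 months was Mt1, the metal-binding metallothionein, which was 1.37-, 1.33- and 2.82-fold the control pool at 1, 2 and 4 months. The gene lower at 1 month was Serpina3k, a serine protease inhibitor, with -1.14, -0.39 and -0.32, and its relative Serpina3m followed with -0.98, -0.24 and -0.15. Lbp, which carries bacterial lipopolysaccharide to its receptor, was above 0 on all 6 arrays with averages of 0.24, 0.47 and 0.80. Being above 0 on all 6 arrays held for 1.72% of all tested probes. Limma called 0 of the 25 for the effect and 0 for the slope.

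The 12 negative acute phase proteins had medians of 0.03, -0.18 and 0.03, with 0 genes at least 2-fold away from control at any month. The albumin gene Alb gave 0.31, 0.03 and 0.59, with arrays of opposite sign at 1 and 2 months. Apoa1, the main protein of high-density lipoprotein, gave -0.61, -0.14 and -0.05, but its arrays had opposite signs in every month, with 0.26 and -1.47 at 1 month and 1.23 and -1.34 at 4 months. Fetub (-0.10, -0.26 and -0.26) and Pon1 (0.44, 0.02 and 0.07) completed the 4 with the largest mean. The arrays of Fetub had opposite signs in every month and those of Pon1 at 2 and 4 months, with -0.91 and 0.38 for Fetub and -0.45 and 0.58 for Pon1 at 4 months. Limma called 0 of the 12 in either test.

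Of the 17 cytokines and receptors that feed the response, 16 had a probe, and 14 were well above background throughout. The cytokine Il6 itself was well above background in 3 of 12 channels, so its ratio is not given. The largest mean was that of the interleukin-1 receptor Il1r1, with -0.47, 0.58 and 0.61 at 1, 2 and 4 months, below 0 on both arrays of 1 month and above it on the other 4. Il22ra1 (-0.11, 0.09 and 0.49), Il6ra (-0.11, 0.32 and 0.19) and Il1rap (-0.08, -0.16 and -0.20) followed, with arrays of opposite sign in 2 months for Il22ra1 and Il1rap and in 1 month for Il6ra. The list had medians of -0.005, 0.03 and 0.01, and limma called 0 of the 16 in either test.

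Among the 21 signaling genes and transcription factors, 1 was at least 2-fold higher and 1 at least 2-fold lower at 4 months, and 0 at 1 and 2 months. The shares of all tested probes at 4 months were 0.467% and 0.338%. Cebpd, a C/EBP factor induced in the acute phase, gave -0.16 and -0.07 (1 month), 0.59 and 0.94 (2 months) and 0.99 and 1.09 (4 months). Cebpd thus lay above 0 on all 4 later arrays, as did Lcn2, Lbp, Il1r1 and Cebpb, whereas Saa1, Saa2 and Saa3 lay below 0 there. A link between Cebpd and the members was not tested. Foxa2, a liver transcription factor, gave 0.18 and 0.24, -0.62 and -0.32, and -1.16 and -0.86. Cebpb averaged 0.01, 0.35 and 0.48, and Socs3, the feedback inhibitor of STAT3 signaling, lay below 0 on all 6 arrays with averages of -0.16, -0.47 and -0.14. Being below 0 on all 6 arrays held for 2.42% of all tested probes. Limma called 0 of the 21 in either test, and the medians were 0.07, -0.05 and -0.01.

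Saa3 had the largest range over the 3 monthly averages among the members, each taken by its probe of highest mean signal. The 5 probes of other genes nearest to it over the 6 arrays were those of Ccdc117 (distance 0.27 on the log2 scale), Camk1d (0.29), Saa1 (0.35, A_51_P361650), Sult1b1 (0.38) and Hist2h2aa1 (0.44), out of the 27899 candidate probes, which had to be read above background in every channel. Sult1b1, a sulfotransferase, gave averages of -0.15, -0.63 and -0.91. Saa2 was not among the 5.

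Among the lists of markers for cell types that a liver sample can hold, the acinar median of 0.55 at 4 months lay farthest from 0. The next was 0.18, for Kupffer cells and macrophages at 1 month. The 9 measured hepatocyte markers had medians of 0.07, 0.03 and 0.02, and all 9 were well above background throughout. Tat (0.27, 0.61 and 0.69), Pck1 (-0.14, 0.25 and 0.47), Alb and Apoa1 had the largest means. The 10 markers of Kupffer cells and macrophages, which can also make Saa3, had medians of 0.18, -0.01 and 0.02, and Timd4 was not well above background in 1 of 12 channels. Adgre1, a macrophage surface receptor, was the only one at least 2-fold higher, at 1 month with 0.71 and 1.76 on the arrays, and gave -0.20 and -0.09 at 2 and 4 months. Marco (0.01, 0.61 and 0.27), Vsig4 (0.26, 0.00 and 0.40) and Lyz2 (0.40, 0.03 and -0.06) followed. The arrays of Adgre1, Vsig4 and Lyz2 had opposite signs at 2 and 4 months. The summed level of the list lay between 5.07 and 5.60 in the alcohol pools and between 4.94 and 5.60 in the control pools. The 8 adipocyte markers had medians of 0.10, 0.09 and 0.09, with Cfd, Cidec, Plin1 and Fabp4 the largest, none above 0.38 in a month. At 4 months the 10 pancreatic acinar markers were all above 0, with a median of 0.55 against -0.05 and 0.02 before. Cela2a (3.75) and Cpb1 (2.17) were at least 2-fold higher there, both well above background in all 4 channels of 4 months, though in 5 and 11 of the 12 channels of the series, and Cpa1, Pnlip, Prss2 and Cela3b gave 0.81, 0.74, 0.66 and 0.45. The summed level of the acinar list was 4.71 in the alcohol pool and 4.31 in the control pool of 4 months. The part of these cells in the ratios of the members was not tested.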

How the data were processed

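The authors hybridized pooled liver RNA to Agilent 4x44K arrays and deposited the output of Agilent Feature Extraction 9.1.1.1, with a processed signal intensity for each channel and spot, after background correction and dye normalization, and a log10 ratio of Cy5 over Cy3 with its error score. The authors also deposited a table of log10 ratios, found here to be alcohol over control, used as an alternative. Ratios were turned to alcohol over control, put on the log2 scale, averaged over the spots of a probe and over the dye-exchanged pair. Levels are log2 intensities minus the 75th percentile of the channel. The number of arrays and pools limits precision. The limma package (3.58.1, R 4.3.3) tested the 3 monthly averages of 37922 probes, with Benjamini-Hochberg adjustment at 0.05, and the fits were tested on simulated data. Tables and plots were made in Python 3.11.15 with pandas 2.3.3, matplotlib 3.10.9, scipy 1.17.1 and numpy 2.4.6. Alternatives were normexp (offset 50) with loess, deposited ratios, median centring, single arrays, probe filters, other thresholds, an unmoderated t-test, a slide block and leaving out months.

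The members and gene lists were chosen with earlier results of these data known. Named genes are all members, the genes of each list with the largest mean ratio regardless of sign (at most 4) and markers not well above background. The 4 were taken among genes well above background in every channel. Il6 and the genes nearest to Saa3 are named besides. For likeness, each member was taken by its probe of highest mean signal and compared by Euclidean distance. Gene positions and promoters are from RefSeq (GRCm38.p6), where 8 members have a promoter window and Hp and Orm1 are named only. RefSeq accessions were given for 25510 probes, of which 22951 matched a current symbol.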

Additional observations from a re-analysis of the deposited data

Results flagged for a closer look

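The ratios of 3 members had opposite signs in different months, with both arrays of one month above 0 and both of the other below it. For Saa1 (A_51_P361650) the average at 2 months minus that at 1 month was -0.73 on the log2 scale, and for 4 months minus 1 month it was -1.07. For the other Saa1 probe (A_52_P318673) these differences were -0.19 and -0.30, and for Saa2 they were -0.39 and -0.85. For Saa4 (A_51_P142529) the difference between 2 months and 1 month was -0.39, whereas the other Saa4 probe did not meet this criterion. These differences between months were not tested pair by pair, and each of them compares arrays on different slides.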

How the results depend on the processing

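The direction of Lcn2 and Orm2 (above 0) and of all 4 probes of Saa1, Saa2 and Saa3 (below 0) in the effect over the months was the same in all 14 alternatives, and the negative slopes of these 4 Saa probes were the same in all 10. In every alternative 0 members were called, with adjusted p between 0.152 and 0.986 for the effect of Lcn2 and between 0.063 and 0.881 for the slope of Saa3. Over all probes the effect called 9 after normexp with loess and 6 among the probes read above background in every channel, and leaving out a month gave 0. The trend called 50 after normexp with loess and 1 by the unmoderated t-test. The count of members at least 2-fold higher at 2 months was 0 on the array with alcohol in Cy5 alone and 0 when both arrays had to reach 2-fold, and at 4 months it was 0 after normexp with loess and 0 when both arrays had to. With alcohol in Cy5 alone the 1 probe at 4 months was that of Hp and not Lcn2, against 1.11%. At 1.5-fold, 1 member probe was lower at 2 months and 3 at 4 months, against 1.63% and 1.62% of all tested probes. The count lower at 4 months was 2 with alcohol in Cy5 alone, against 1.1%. It was 0 with median centring, 0 with alcohol in Cy3 alone, 0 on both arrays, 0 with the mean of a gene's probes and, chosen after seeing the data, 0 with 1 probe per gene.

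Estimates near 0 changed sign. With alcohol in Cy3 alone, the effects of Saa4 became -0.0822 (A_51_P142529) and -0.0374 (A_52_P404329) and that of Apcs 0.0506. With alcohol in Cy5 alone, those of Orm1, Crp and Hp became -0.0763, -0.0813 and 0.568. Leaving out 1 month at a time, the effects ranged from -0.0984 to 0.0978 and from -0.0348 to 0.0610 for the same 2 Saa4 probes (lowest without 1 month), from -0.0138 to 0.0871 for Orm1 and from -0.0152 to 0.150 for Crp (lowest without 4 months), and from -0.236 to 0.0232 for Hp (above 0 without 1 or without 2 months). For the slope, Saa4 (A_51_P142529), Crp and Apcs became 0.0102, -0.127 and -0.210 with alcohol in Cy5 alone, and Saa4 (A_52_P404329), Orm1 and Orm2 became 0.0128, -0.0324 and 0.0113 with alcohol in Cy3 alone. The cause of these sign changes was not tested. With the channel median or Aquantile scaling, 65 of 144 differences in pool level between months stayed within the spread of the arrays and 79 moved beyond it, and of those that were at least 2-fold 0 changed sign. The replicate numbers mark the arrays of a dye-exchanged pair, and with 1 pair of pools a month the number of pools limits what can be seen.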
